A study of Mus musculus with 4 samples.

Results

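The genes described here are 10 chemokines that kidney tubular epithelium can make: Cxcl1, Cxcl2, Cxcl5, Cxcl10, Cxcl12, Cxcl16, Cx3cl1, Ccl2, Ccl7 and Ccl20. They were chosen by gene symbol out of 37981 gene loci with RNA-Seq values, and each of the 10 had a row of its own. The RNA came from inner medullary collecting duct (IMCD) cells, a cultured line of epithelial cells from the terminal collecting duct. They were taken from C57B/l mice with floxed Tgfbr2, the gene for the type II TGF-β receptor (TβRII), and were immortalized with psv40, so both genotypes derive from floxed cells and share the immortalizing agent. TβRII-/- cells had been treated with adeno-Cre, an adenovirus that delivers the Cre recombinase, and TβRIIfl/fl cells were left untreated. Each genotype was sequenced once in serum-replete medium and once after 4 days in serum-deplete medium (serum-starved), which makes 4 libraries with 1 library for each condition. With 1 library per condition there is no spread between cultures and no test was run, so every difference below describes these libraries. Loss of TβRII cannot be told apart from exposure to virus or to Cre, and the labels name no independent lines or cultures within a genotype. Tgfbr2 RNA, in FPKM (fragments per kilobase of transcript after Cuffdiff's scaling to library size), stood at 73.7 in TβRII-/- against 143 in TβRIIfl/fl cells without serum and at 57.0 against 163 with it, values that span the whole gene and are no check on the floxed exon.

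Chemokines are small secreted proteins that guide leukocytes along a concentration gradient by binding G protein–coupled receptors on the leukocyte. They are named for the spacing of their first cysteines, as the CXC, CC and CX3C families. In the kidney, injured tubule cells release chemokines toward the interstitium, where neutrophils, monocytes and T cells enter. Many of the genes are switched on within hours by NF-κB, the transcription factor that carries the signals of TNF, interleukin-1 and Toll-like receptors, and Cxcl10 is also a classic target of the interferons.

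The promoters of 6 of the 10 genes were matched in RefSeq (GRCm38.p6, the same assembly as mm10). Cxcl1, Cxcl2, Cxcl10 and Ccl20 are shown because they hold the letters of the NF-κB consensus in the 250 bases before the start site, and because their values in the libraries went different ways. They run 5′ to 3′ on the coding strand. Capitals mark the NF-κB consensus and, in Cxcl10, also the interferon response element core and the AP-1 motif.
Cxcl1, chr5:90890995-90891244, plus strand: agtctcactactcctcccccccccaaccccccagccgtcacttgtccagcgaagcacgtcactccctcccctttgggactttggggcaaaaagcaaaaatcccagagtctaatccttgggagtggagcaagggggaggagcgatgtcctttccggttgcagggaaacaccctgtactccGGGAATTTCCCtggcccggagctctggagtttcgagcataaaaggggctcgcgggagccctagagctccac
Cxcl2, chr5:90903649-90903898, plus strand: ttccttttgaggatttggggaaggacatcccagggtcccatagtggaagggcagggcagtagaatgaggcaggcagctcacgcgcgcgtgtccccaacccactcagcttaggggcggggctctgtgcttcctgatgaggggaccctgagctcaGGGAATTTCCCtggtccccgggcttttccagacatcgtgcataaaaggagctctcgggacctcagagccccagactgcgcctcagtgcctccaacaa
Cxcl10, chr5:92348890-92349139, minus strand: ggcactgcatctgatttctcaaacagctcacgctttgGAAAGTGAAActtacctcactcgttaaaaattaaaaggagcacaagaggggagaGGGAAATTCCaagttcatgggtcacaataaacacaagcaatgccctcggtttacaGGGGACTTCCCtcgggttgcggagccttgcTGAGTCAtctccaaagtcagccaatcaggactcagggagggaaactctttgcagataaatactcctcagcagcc
Ccl20, chr1:83116516-83116765, plus strand: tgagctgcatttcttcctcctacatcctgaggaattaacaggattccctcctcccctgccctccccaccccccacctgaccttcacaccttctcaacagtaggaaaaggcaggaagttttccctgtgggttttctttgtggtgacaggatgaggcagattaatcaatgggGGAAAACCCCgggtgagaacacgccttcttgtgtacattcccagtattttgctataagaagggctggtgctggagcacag

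The neighbors Cxcl1 and Cxcl2 hold the same NF-κB letters, GGGAATTTCC on the plus strand and GGAATTTCCC on the minus strand starting 1 base further on, from base −71 before the start site in Cxcl1 and from base −97 in Cxcl2. Ccl20 holds GGAAAACCCC, an NF-κB match on the minus strand, at bases −80 to −71. Cxcl10 holds GGGAAATTCC from base −159 and overlapping matches from base −104 to base −94. It also holds GAAAGTGAAA, which fits the interferon core GAAANNGAAA, from base −213, and TGAGTCA, which fits the AP-1 motif TGANTCA, from base −74. Both strands were searched. The NF-κB consensus was found in 7.25% of 32851 promoters of the same length, the interferon core in 2.98% and the AP-1 motif in 6.75%. Of the 6 chemokine promoters, 4 held the NF-κB consensus, 1 held the interferon core and 1 held the AP-1 motif, while none held TTCNNNGAA (STAT, 7.02% of all promoters) or the SMAD palindrome GTCTAGAC (0.167% of all promoters). Cx3cl1 and Cxcl12 were the promoters without any of these letters in the window. Start sites here are those of RefSeq, and the windows of Cx3cl1, Cxcl1 and Cxcl2 reach past the GENCODE gene starts given below. That of Cx3cl1 is chr8:94771930-94772179, while the GENCODE gene starts at 94772009, so much of this window lies inside that gene. A match describes letters and does not show that a factor bound there.

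With serum, chemokine RNA was lower in TβRII-/- than in TβRIIfl/fl cells for 9 of the 10 genes, and Cxcl10 went the other way. After starvation it was lower for 6 of the 10, and Cxcl1, Cxcl2, Cxcl10 and Ccl20 had more in TβRII-/- cells. Both counts take differences of any size, also those of genes under 1 FPKM. Levels are given in FPKM, which allows genes to be compared with each other within a library. Differences are log2 ratios of FPKM + 1 in TβRII-/- over FPKM + 1 in TβRIIfl/fl cells, which understate the change of low genes, and a gene is called higher or lower in TβRII-/- cells at a ratio of at least 2-fold if it has at least 1 FPKM in either library of that medium. In serum-replete medium all 10 genes passed this filter, 7 were called lower and 1 was called higher, against 11.1% lower and 7.0% higher among all 12635 loci that passed. After serum starvation 8 of the 10 passed, 4 were called lower and none was called higher, against 6.64% lower and 8.02% higher among 12687 loci. The median log2 ratio of the chemokines was −1.45 in serum-replete and −0.90 in serum-starved medium, while that of all loci was −0.029 and 0.028. With medians this near 0, all loci lay on either side of 0 in roughly equal number. The 6 of 10 genes lower after starvation are close to such a split. Cxcl2 and Cxcl5, under 1 FPKM in both serum-starved libraries, are left out of the serum-starved median, and with them it was −0.65. Some genes passed the filter through 1 library alone, namely Cxcl12 and Ccl7 after starvation and Cxcl2, Cxcl5 and Cxcl12 with serum through TβRIIfl/fl cells, and Ccl20 after starvation through TβRII-/- cells. Cxcl12, Ccl2 and Ccl7 were called lower in both media. In bulk RNA, fewer cells expressing a gene and less RNA per cell cannot be told apart.

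**Figure D1:**
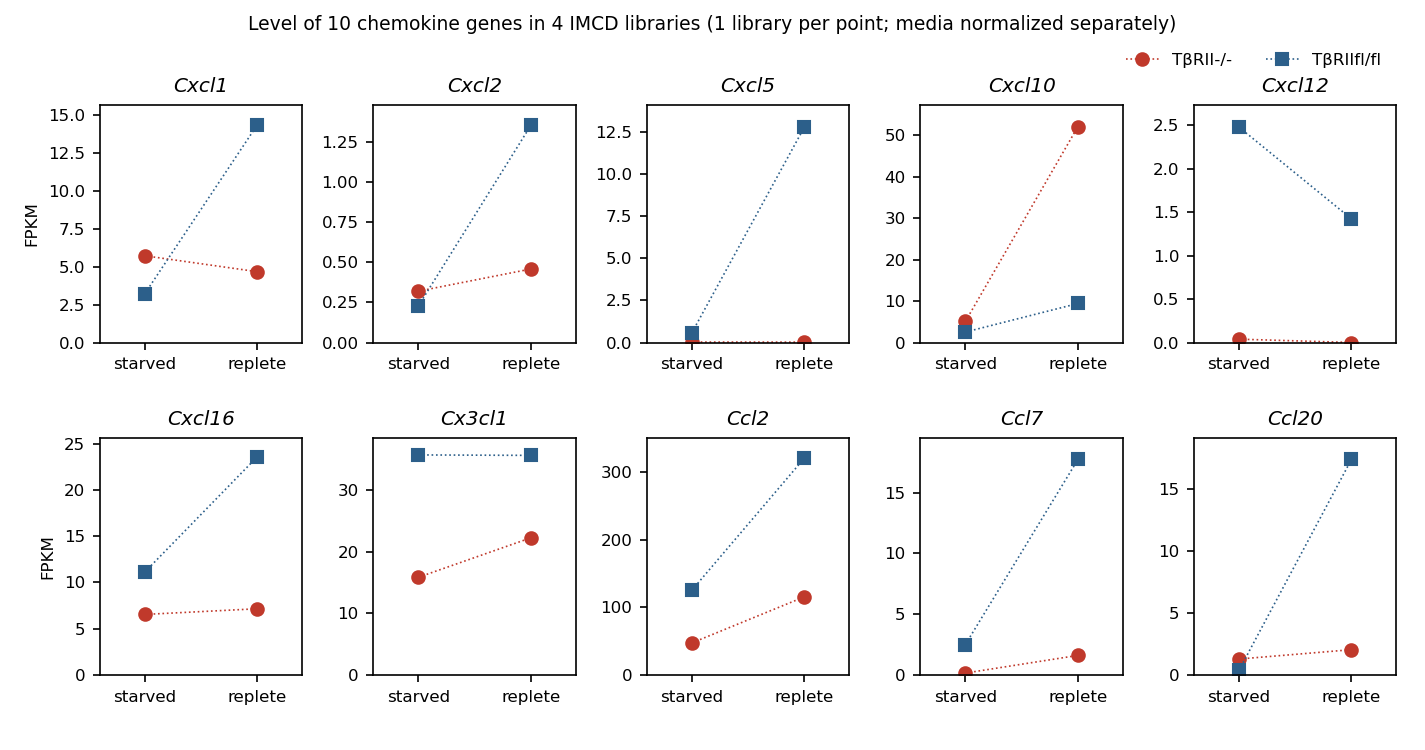
FPKM of each of the 10 chemokine genes (vertical axis, linear, starting at 0, a scale of its own for each gene) in serum-starved and serum-replete medium, with red circles for TβRII-/- and blue squares for TβRIIfl/fl cells. Each point is 1 library and dotted lines join libraries of 1 genotype, whose media were normalized separately. TβRIIfl/fl cells lie above TβRII-/- cells for 9 of 10 genes in serum-replete medium and for 6 of 10 after starvation, and Cxcl10 is the only gene of the 10 with more in TβRII-/- cells in both media. These counts take differences of any size, and 6 of 10 is near the roughly even split of all loci.

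By level, Ccl2 stood first of the 10 in every library and Cx3cl1 second in every library but TβRII-/- serum-replete, where Cxcl10 came second. In the TβRIIfl/fl serum-replete library Ccl2 stood above 97.7% of the loci with at least 1 FPKM. At the other end, Cxcl2 was below 1.36 FPKM or at that value in all 4 libraries. How far neighbors in this order would change places between cultures is not known from 1 library each.

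Among the CC chemokines Ccl2 led by level. It encodes MCP-1, the main ligand of CCR2 on inflammatory monocytes. Ccl2 was 47.3 FPKM in TβRII-/- and 125 FPKM in TβRIIfl/fl cells after starvation, and with serum it was 115 FPKM and 320 FPKM. TβRII-/- cells were lower in both media by a similar ratio, with a log2 ratio of −1.38 after starvation and −1.46 with serum, so that TβRIIfl/fl cells had 2.64 and 2.78 times as much. The Ccl2 gene lies at chr11:82035571-82037453 on the plus strand, and its row in the deposited tables covers a locus shared with Gm17268, which was listed at 0.

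Ccl7 encodes MCP-3, another CCR2 ligand. Its gene begins 8259 bp after the end of Ccl2, at chr11:82045712-82047525, also on the plus strand. Ccl7 was 0.159 FPKM in TβRII-/- and 2.50 FPKM in TβRIIfl/fl cells after starvation. The serum-replete values were 1.61 and 17.7 FPKM. These pairs give log2 ratios of −1.60 and −2.84. The serum-starved TβRII-/- value is worth only about 3.1 reads, which is too few for a fold, and in serum-replete medium TβRIIfl/fl cells had 11.0 times as much. Both neighbors were thus called lower in TβRII-/- cells in both media, with Ccl7 at far lower levels than Ccl2.

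Ccl20, on chromosome 1 at 83116766-83119167, encodes the ligand of CCR6, the receptor that brings Th17 cells and some dendritic cells to epithelia. It was 1.29 FPKM in TβRII-/- and 0.365 FPKM in TβRIIfl/fl cells after starvation. In the same order, 2.04 and 17.4 FPKM were measured with serum. The order of the genotypes therefore turned between the media, with a log2 ratio of 0.74 after starvation, within 2-fold on this scale, and of −2.60 with serum. Behind the serum-starved values stand about 50.7 and 14.4 reads, and the raw FPKM there was 3.52 times as high in TβRII-/- cells. In serum-replete medium TβRIIfl/fl cells had 8.52 times as much.

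**Figure D2:**
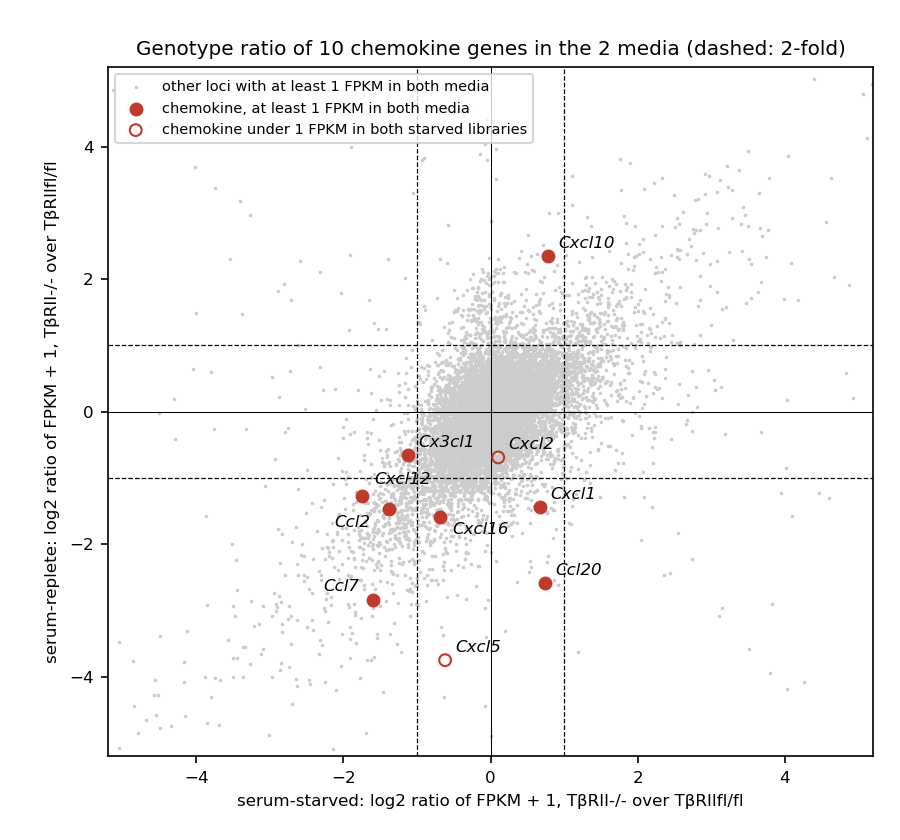
Log2 ratio of FPKM + 1, TβRII-/- over TβRIIfl/fl, after serum starvation (horizontal axis) and in serum-replete medium (vertical axis), each from 1 library per genotype, with gray points for other loci of at least 1 FPKM in both media and red circles for the chemokines. Open circles are Cxcl2 and Cxcl5, under 1 FPKM in both serum-starved libraries. Dashed lines mark 2-fold. Cxcl12, Ccl2 and Ccl7 lie past 2-fold lower in both media, Cxcl1 and Ccl20 lie to the right of 0 and below the lower line, and Cxcl10 lies above the upper line. In all, 59 loci fall outside the axes.

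The neutrophil chemokines Cxcl1, Cxcl2 and Cxcl5 carry the ELR motif before their first cysteine and bind CXCR2 on neutrophils. Cxcl1 (KC), at chr5:90891241-90893115, was 5.73 FPKM in TβRII-/- and 3.22 FPKM in TβRIIfl/fl cells after starvation. In serum-replete medium it was 4.67 FPKM and 14.4 FPKM. As with Ccl20 the order of the genotypes turned, from a log2 ratio of 0.67 after starvation to −1.44 with serum. The fold was 1.78 toward TβRII-/- cells in the former and 3.08 toward TβRIIfl/fl cells in the latter.

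Cxcl2 (MIP-2), which begins 10756 bp beyond Cxcl1 at chr5:90903871-90905938, was far lower than Cxcl1 in every library. It was 0.321 FPKM in TβRII-/- and 0.228 FPKM in TβRIIfl/fl cells after starvation, under the filter. The serum-replete values were 0.459 and 1.36 FPKM. The serum-replete log2 ratio was −0.69, within 2-fold on the FPKM + 1 scale, although the raw FPKM was 2.95 times as high in TβRIIfl/fl cells, from about 73.2 reads against 31.1.

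Cxcl5 (LIX), at chr5:90759360-90761624, had, with serum, the largest log2 ratio in size of the 10 genes. It was 0.0270 FPKM in TβRII-/- and 0.575 FPKM in TβRIIfl/fl cells after starvation, under the filter. In the same order, 0.0218 and 12.8 FPKM were measured with serum. The serum-replete log2 ratio was −3.75, below that of all but 0.807% of the loci compared. Each TβRII-/- value is worth about 1.2 reads, against about 571 in the TβRIIfl/fl serum-replete library, so the gene was near the limit of detection in TβRII-/- cells and no fold is given. Of the 50-base windows of its transcript, 3.08% also occur in another gene, as do 3.37% of those of Cxcl2, whose copy is Cxcl3.

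Cxcl10 encodes IP-10, a ligand of CXCR3 on activated T cells and NK cells. It was 5.07 FPKM in TβRII-/- and 2.52 FPKM in TβRIIfl/fl cells after starvation. The serum-replete values were 52.1 and 9.41 FPKM. It was the only chemokine of the 10 with more RNA in TβRII-/- cells in both media. The log2 ratio was 2.35 with serum, higher than that of 98.6% of loci, and the raw level was 5.53 times as high. After starvation the log2 ratio was 0.79, within 2-fold on the FPKM + 1 scale, with raw levels that differed 2.01 times. Cxcl10 lies at chr5:92346638-92348889 on the minus strand, and its row spans a longer locus, 92331827 to 92414628, that also holds Art3, Gm2673 and Cxcl11. Cxcl9 and Cxcl11, which encode the other CXCR3 ligands and flank Cxcl10, were at most 0.0125 and 0.117 FPKM in any library.

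The genes of the interferon response were measured beside Cxcl10. With serum, 3 of 19 measured genes of this list were called higher in TβRII-/- cells and 1 was called lower, against 7.0% higher and 11.1% lower of all loci, with a median log2 ratio of 0.14. After starvation 8 of 21 were called higher and 1 lower, against 8.02% and 6.64% of all loci, with a median of 0.63. Isg15, a ubiquitin-like protein, was 31.4 FPKM in TβRII-/- and 6.61 FPKM in TβRIIfl/fl cells after starvation, a log2 ratio of 2.09. With serum its log2 ratio was 0.56, within 2-fold. Rsad2 (viperin), an antiviral enzyme, was 4.67 FPKM against 0.0466 FPKM after starvation, a log2 ratio of 2.44, and was under the filter with serum. Oas1a, an enzyme that senses double-stranded RNA, was listed at 0 in TβRIIfl/fl cells in both media and was 1.90 FPKM in TβRII-/- cells with serum, and Usp18, which removes Isg15 from proteins, was 1.42 FPKM and 0.200 FPKM. Ifit3, an antiviral RNA-binding partner of Ifit1, was the 1 gene of the list called lower in each medium. It was 15.3 FPKM in TβRII-/- and 67.2 FPKM in TβRIIfl/fl cells with serum (log2 ratio −2.06), with a log2 ratio of −2.29 after starvation. Other genes also had less in TβRII-/- cells with serum but within 2-fold, such as Irf1 and Ifitm3, at −0.96 and −0.88.

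Cxcl12 (SDF-1) is a homeostatic chemokine that holds and guides cells through CXCR4 and is taken up by the scavenger receptor ACKR3. It was 0.0383 FPKM in TβRII-/- and 2.48 FPKM in TβRIIfl/fl cells after starvation. In serum-replete medium it was listed at 0 in TβRII-/- cells and was 1.42 FPKM in TβRIIfl/fl cells. The log2 ratios were −1.74 and −1.28, so it was called lower in both media. The raw level after starvation was 64.7 times as high in TβRIIfl/fl cells, a ratio that rests on about 6.7 reads in TβRII-/- against 435.5 in TβRIIfl/fl cells. Cxcl12 lies at chr6:117168535-117181367 on the plus strand.

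The receptor genes for these ligands were under 1 FPKM in every library, with Ackr3 as the exception. Ackr3 was 0.124 FPKM in TβRII-/- and 24.2 FPKM in TβRIIfl/fl cells after starvation (log2 ratio −4.49). With serum it was 0.0185 FPKM and 9.71 FPKM (log2 ratio −3.40). The Ackr3 transcript thus had its higher values in the same 2 libraries as that of its ligand Cxcl12. Cxcr4 was at most 0.182 FPKM, and the exception is 1 of 23 receptor genes measured.

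Among all loci of a single gene that passed in both media (11862), those with the pair of log2 ratios nearest to Cxcl12 were Cachd1, a calcium channel–associated membrane protein, Sema4d, a semaphorin, and Slc35g1, a solute carrier. Their Euclidean distances from Cxcl12 on the log2 scale were 0.064, 0.065 and 0.097. Sema4d was 6.99 FPKM in TβRII-/- and 26.6 FPKM in TβRIIfl/fl cells after starvation, and 6.53 FPKM and 17.8 FPKM with serum. For Cxcl5 the nearest were Serpinf1 (PEDF, a secreted serpin), Lcn2 (NGAL, a secreted marker of tubular injury) and Arrb2 (β-arrestin 2, which binds chemokine receptors and other G protein–coupled receptors), at distances of 0.38, 0.50 and 0.55. Lcn2 was 7.61 FPKM and 12.8 FPKM after starvation, with 63.2 FPKM in TβRII-/- and 613 FPKM in TβRIIfl/fl cells with serum. Likeness over 2 ratios is a description, and Cxcl5 itself was under 1 FPKM in both serum-starved libraries. The likeness holds on the FPKM + 1 scale, which shrinks the ratios of Cxcl12 and Cxcl5, and not for raw levels. Raw Cxcl12 differed 64.7 times after starvation, where Cachd1 was 2.95 FPKM in TβRII-/- and 12.5 FPKM in TβRIIfl/fl cells. Raw Cxcl5 with serum was 0.0218 FPKM against 12.8 FPKM.

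Cxcl16 and Cx3cl1 are made as membrane proteins with a chemokine domain on a mucin stalk, which holds cells bearing CXCR6 or CX3CR1 until proteases shed it. Cxcl16, at chr11:70453983-70459984 on the minus strand, was 6.54 FPKM in TβRII-/- and 11.1 FPKM in TβRIIfl/fl cells after starvation. In the same order, 7.16 and 23.6 FPKM were measured with serum. TβRII-/- cells had less in both media, within 2-fold after starvation (log2 ratio −0.68) and past it with serum (log2 ratio −1.59, 3.30 times as much in TβRIIfl/fl cells). Its locus is shared with Zmynd15, and 19.0% of the 50-base windows of the Cxcl16 transcript also occur in that gene, so part of its reads could have been counted there. Zmynd15 itself was 0.939 FPKM in TβRII-/- and 2.66 FPKM in TβRIIfl/fl cells with serum.

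Cx3cl1 (fractalkine), at chr8:94772009-94782427 on the plus strand, was 15.9 FPKM in TβRII-/- and 35.8 FPKM in TβRIIfl/fl cells after starvation. The serum-replete values were 22.3 and 35.7 FPKM. It was called lower after starvation, with a log2 ratio of −1.12, and lay within 2-fold with serum, at −0.66. It was the chemokine of the 10 with nearly equal values in the 2 TβRIIfl/fl libraries.

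Of the genes that shed or process chemokines, the sheddases Adam10 and Adam17 lay within 2-fold in both media. Adam10 was 51.5 FPKM in TβRII-/- and 32.8 FPKM in TβRIIfl/fl cells after starvation and 39.9 FPKM and 36.5 FPKM with serum, and the log2 ratios of Adam17 were 0.53 and 0.17. Over the whole list 2 of 12 measured genes were called higher and 3 lower after starvation, against 8.02% and 6.64% of all loci. With serum none of 13 was called higher and 3 were called lower, against 7.0% and 11.1%. Mmp2, a gelatinase that trims Cxcl12 and Ccl7 among its substrates, was lower in TβRII-/- cells, at 1.22 FPKM against 16.4 FPKM after starvation and 1.23 FPKM against 17.9 FPKM with serum. Cpm, a membrane carboxypeptidase, was likewise lower, with log2 ratios of −1.71 and −1.90. Hspg2 (perlecan), a heparan sulfate proteoglycan of basement membrane, was higher after starvation at a log2 ratio of 1.41, and Sdc1 (syndecan-1), a cell surface heparan sulfate proteoglycan, was lower with serum at −1.09.

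Set side by side, the serum-replete libraries held more RNA of most of these chemokines than the serum-starved ones in TβRIIfl/fl cells. Levels in the 2 media come from tables normalized separately and were not tested. In TβRIIfl/fl cells 7 of 10 genes had at least 2-fold more with serum on the FPKM + 1 scale and none had at least 2-fold less. Among all 12583 loci 3.77% were higher and 2.76% lower. In TβRII-/- cells 3 of 7 genes that passed the filter had at least 2-fold more and none had at least 2-fold less, against 5.92% and 8.02% among 12327 loci. Cxcl2, Cxcl5 and Ccl20 in TβRIIfl/fl cells and Ccl7 in TβRII-/- cells passed through the serum-replete library alone. Those genes entered the counts through the library where they were higher. The median log2 ratio of serum-replete over serum-starved values was 1.46 for the 10 chemokines in TβRIIfl/fl cells and 0.46 for the 7 that passed in TβRII-/- cells. These medians cover different genes, since Cxcl2, Cxcl5 and Cxcl12 are left out of the latter. The medians of all loci were −0.021 in TβRIIfl/fl and −0.13 in TβRII-/- cells.

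By these values the genes can be set in groups, drawn after the values were seen. Cxcl10, Ccl2 and Ccl7 were more than 2-fold higher with serum in both genotypes, with Ccl2 at log2 ratios of 1.35 in TβRIIfl/fl and 1.27 in TβRII-/- cells and Cxcl10 at 1.56 and 3.13. Cxcl1, Cxcl16 and Ccl20 were more than 2-fold higher with serum in TβRIIfl/fl cells, at log2 ratios of 1.87, 1.02 and 3.75, and lay within 2-fold in TβRII-/- cells, at −0.25, 0.11 and 0.41. Cxcl5 was under the filter in both TβRII-/- libraries and had a log2 ratio of 3.13 in TβRIIfl/fl cells. Cx3cl1 lay within 2-fold in both genotypes. Cxcl2 and Cxcl12 were under the filter in both TβRII-/- libraries and lay within 2-fold in TβRIIfl/fl cells on the FPKM + 1 scale, at 0.94 and −0.52. For Cxcl2 that rests on the pseudocount, since its raw level there was 1.36 FPKM with serum and 0.228 FPKM without, about 73.2 and 12.3 reads. The comparisons of genotype and of medium share these 4 libraries and are not independent of each other.

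Within the CXC gene cluster on chromosome 5, the platelet chemokine gene Ppbp, which lies between Cxcl5 and Cxcl1, was 1.69 FPKM in TβRII-/- and 4.80 FPKM in TβRIIfl/fl cells after starvation and 28.9 FPKM and 45.0 FPKM with serum. It was called lower after starvation, at a log2 ratio of −1.11, and lay within 2-fold with serum, at −0.62. Pf4, Cxcl3 and Cxcl15, the rest of the cluster, stayed under 1 FPKM in every library. Among the CC genes of chromosome 11 is Ccl5 (RANTES), a T cell and monocyte chemokine. With serum it was 18.5 FPKM in TβRII-/- and 6.50 FPKM in TβRIIfl/fl cells. Its log2 ratio of 1.38 was opposite in direction to Ccl2 and Ccl7. Ccl5, at chr11:83525778-83530518, does not adjoin them, since Ccl1, the gene before it in the order measured, ends at 82305690. After starvation Ccl5 was 0.111 FPKM in TβRII-/- and listed at 0 in TβRIIfl/fl cells.

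**Figure D3:**
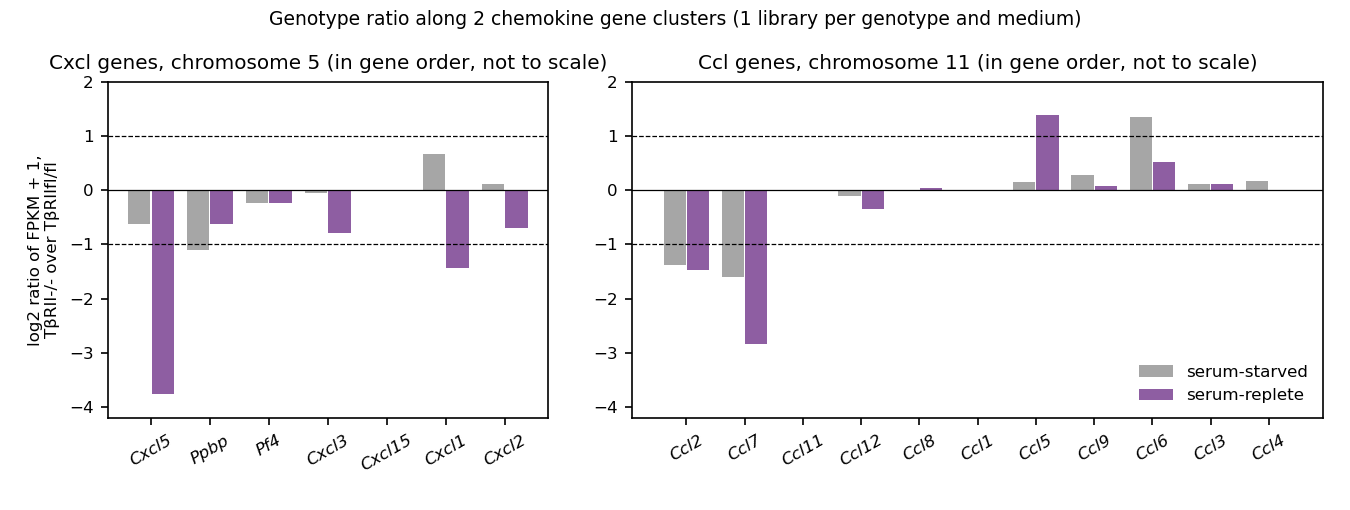
Log2 ratio of FPKM + 1, TβRII-/- over TβRIIfl/fl (vertical axis), for genes of the CXC cluster on chromosome 5 and the CC genes of chromosome 11 in gene order (horizontal axis, not to scale), with gray bars for serum-starved and purple bars for serum-replete medium, from 1 library per genotype and medium. Genes without a visible bar are at or near 0 FPKM in all 4 libraries or have nearly equal levels, and dashed lines mark 2-fold. Cxcl5, Cxcl1, Ccl2 and Ccl7 point down past 2-fold with serum, and Ccl5 points up. Ccl1 and Ccl5, drawn next to each other, lie far apart on the chromosome.

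Over the 28 chemokine genes outside the 10, 7 passed the filter in each medium, with median log2 ratios of 0.16 after starvation and −0.019 with serum. After starvation 2 were called higher and 2 lower, against 8.02% and 6.64% of all loci. With serum 2 were called higher and 1 lower, against 7.0% and 11.1%. Cxcl14, an epithelial chemokine found widely in healthy tissue, was 15.2 FPKM in TβRII-/- and 0.417 FPKM in TβRIIfl/fl cells after starvation and 6.13 FPKM and 0.439 FPKM with serum. Ccl17, a CCR4 ligand that draws T cells, was lower in TβRII-/- cells, at 2.34 FPKM against 9.15 FPKM after starvation and 3.39 FPKM against 16.9 FPKM with serum. Ccl6, a CC chemokine of rodents, was 1.55 FPKM in TβRII-/- cells after starvation and listed at 0 in TβRIIfl/fl cells.

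All 16 NF-κB subunits and inhibitors passed the filter, with median log2 ratios of 0.10 after starvation and 0.032 with serum. After starvation 4 were called higher in TβRII-/- cells and none lower, against 8.02% and 6.64% of all loci. Nfkbia, which encodes IκBα, was 34.6 FPKM in TβRII-/- and 14.4 FPKM in TβRIIfl/fl cells, a log2 ratio of 1.21, and Tnfaip3 (A20), a feedback inhibitor, was 13.3 FPKM against 2.98 FPKM, at 1.84. Nfkbie (IκBε) had a log2 ratio of 1.22. With serum none was called higher and 2 were called lower, near the 11.1% of all loci. They were Nfkbiz (IκBζ), at 5.62 FPKM against 27.7 FPKM, and Bcl3, at 8.81 FPKM against 41.5 FPKM, both nuclear IκB proteins that act with NF-κB on DNA. The log2 ratio of Tnip1, a partner of A20, was −0.75 there. Rela, the main transactivating subunit, had log2 ratios of −0.017 and −0.61.

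The receptors and adaptors through which chemokine genes are induced were all measured, and 1 of 20 was called higher and 2 lower after starvation, near the 8.02% and 6.64% of all loci. With serum none was called higher and 4 were called lower, against 7.0% and 11.1% of all loci. Osmr, the oncostatin M receptor, was 7.36 FPKM in TβRII-/- and 38.2 FPKM in TβRIIfl/fl cells with serum (log2 ratio −2.23) and was also called lower after starvation (−1.07). Lifr, the receptor for leukemia inhibitory factor, had log2 ratios of −1.23 and −1.76. Ifngr1, a chain of the interferon-γ receptor, was 53.9 FPKM against 154 FPKM with serum (log2 ratio −1.50). Tlr4, the receptor for bacterial lipopolysaccharide, was 33.7 FPKM against 13.0 FPKM after starvation, a log2 ratio of 1.31. Of the inflammatory cytokines that signal to these receptors, Il1b, Tnf and Il6 stayed under 1 FPKM in every library.

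**Figure D4:**
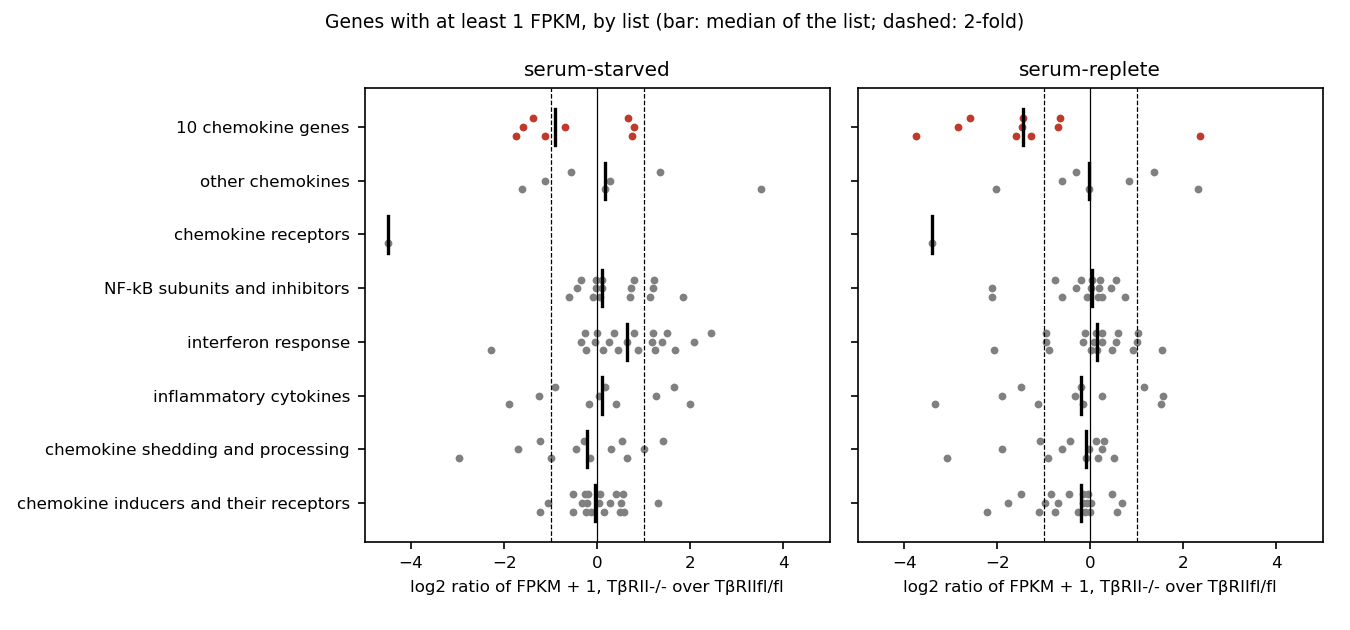
Log2 ratio of FPKM + 1, TβRII-/- over TβRIIfl/fl (horizontal axis), for the genes of at least 1 FPKM in each list (rows), without and with serum, from 1 library per genotype and medium. Points are genes, with the 10 chemokines in red, black bars are list medians and dashed lines mark 2-fold. The median of the 10 chemokines is −0.90 after starvation and −1.45 with serum, those of the other chemokines, NF-κB genes, cytokines, shedding genes and inducers lie between −0.22 and 0.16, and that of the interferon response is 0.63 and 0.14. The receptor row is Ackr3 alone. Marker lists are not drawn, and their medians reached below those of the chemokines, at −5.04 after starvation for proximal tubule and −1.91 with serum for fibroblasts.

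Markers of cells that could share a culture or supply chemokines were measured in the same libraries. Of 12 leukocyte markers the summed level was 24.8 FPKM in TβRII-/- and 26.7 FPKM in TβRIIfl/fl cells after starvation and 22.6 FPKM and 25.4 FPKM with serum, most of it Csf1r, Cd68 and Cd14, with Cd3e listed at 0, Adgre1 at most 0.0961 FPKM and Ptprc at most 1.34 FPKM. These sums hold genes that went opposite ways. Cd14, a lipopolysaccharide co-receptor that epithelia can also express, was lower in TβRII-/- cells, at 2.59 FPKM against 6.38 FPKM after starvation and 1.76 FPKM against 12.6 FPKM with serum. Csf1r was higher with serum, at 7.99 FPKM against 2.94 FPKM, and Ly6g was 2.54 FPKM in TβRII-/- cells after starvation and listed at 0 in TβRIIfl/fl cells. Of 10 fibroblast markers the sum was 297 FPKM and 167 FPKM after starvation and 388 FPKM and 1480 FPKM with serum, nearly all of it Acta2, with Pdgfra, Pdgfrb, Col3a1 and Lum under 0.1 FPKM. Postn was lower in TβRII-/- cells, at 0.147 FPKM against 17.6 FPKM with serum, where Col1a1 was 0.587 FPKM against 2.12 FPKM. Of 8 endothelial markers, Cdh5 and Emcn were listed at 0 and only Flt1 reached 1 FPKM. The part of these genes in the chemokine values was not tested.

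The label of the cells held only in part. Of 16 collecting duct markers 9 passed the filter in each medium, and Aqp2, the water channel that defines principal cells, was listed at 0 in all 4 libraries. After starvation 4 were called lower and 1 higher in TβRII-/- cells, against 6.64% lower and 8.02% higher of all loci. With serum 5 were called lower and 1 higher, against 11.1% and 7.0%. Tfcp2l1, a transcription factor of collecting duct cells, was between 64.7 and 97.8 FPKM in the 4 libraries. Epcam and Cdh1, epithelial genes of the same list, were low. Epcam was at most 0.485 FPKM in any library. Cdh1 was 0.156 FPKM in TβRII-/- and 1.79 FPKM in TβRIIfl/fl cells after starvation (log2 ratio −1.27). With serum Cdh1 was 0.0423 FPKM and 1.25 FPKM (log2 ratio −1.11), so it was called lower in both media. The keratin gene Krt8 was at 0.133 FPKM in TβRII-/- against 142 FPKM in TβRIIfl/fl cells after starvation. Krt18, another keratin gene of the list, went the other way, at 89.1 FPKM against 25.1 FPKM with serum (log2 ratio 1.79). After starvation it lay within 2-fold, at 36.9 FPKM against 22.1 FPKM. Scnn1g, a subunit of the epithelial sodium channel, had log2 ratios of −2.30 and −2.55, and Hsd11b2, which inactivates glucocorticoids, had −2.02 with serum, while the transcription factor Gata3 was higher after starvation at 1.63. The median of the list was −0.79 after starvation and −1.07 with serum. Of 8 proximal tubule markers, 3 passed the filter after starvation and 4 with serum, with 1 called higher and 2 lower in each medium, against the same shares of all loci. Aqp1 and Ggt1 were lower in TβRII-/- cells, and Aqp1 was 0.499 FPKM against 48.5 FPKM after starvation. Lrp2 (megalin) was higher, at 20.4 FPKM against 4.19 FPKM after starvation and 5.61 FPKM against 2.18 FPKM with serum.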

How the data were processed

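RNA-Seq was analyzed for 4 IMCD libraries, TβRII-/- and TβRIIfl/fl in serum-replete and serum-starved medium, grouped by their labels. Reads were aligned to mm10 and quantified with TopHat2, Cufflinks and Cuffdiff according to the submitters' notes on processing (versions and annotation release not given in the sources used here). Values were deposited by the authors as FPKM, normalized separately for each medium, so genotypes were compared within a medium. The authors' own fold changes, p-values, lists of top hits and category counts were not used.

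Log2 ratios were computed on FPKM + 1 for loci with at least 1 FPKM in either library, and called at 2-fold. No p-value was computed. FPKM summed to 1001760 to 1139126 per library. The steps between low values correspond to 32400000 to 40800000 reads if fragments were 200 bp, but only 69.3% to 75.3% of low values lay within 10% of a whole step, so reads were not recovered and read numbers in the text are approximate. The TβRII-/- serum-replete library was the deepest. The calculation was tested on simulated data with 200 changed genes per medium, all at 5 FPKM or more in TβRIIfl/fl cells. It therefore does not bear on chemokines under that level.

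The 10 genes, the other lists and the tests were chosen with earlier results of these data known. Beyond the 10 and Tgfbr2, the text names the 3 genes of each list with the largest log2 ratio in size in each medium and the 3 loci nearest in pattern to Cxcl12 and Cxcl5. Receptors, sheddases, cytokines, cluster neighbors, Rela and marker genes outside that rule were named for their role, after their values had been seen. Gene coordinates are from GENCODE M21 (GRCm38, mm10) and promoters from RefSeq. Alternatives were pseudocounts of 0.1 and 0.5, no filter or a minimum of 5 FPKM, median centering over all loci, rescaling without mitochondrial and short RNA loci, the mean in place of the median and a 1.5-fold threshold. Python 3.11.15, pandas 2.3.3, numpy 2.4.6 and matplotlib 3.10.9 were used.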

Additional observations from a re-analysis of the deposited data

Results flagged for a closer look

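Cxcl1 and Ccl20 differed between the genotypes in opposite directions in the 2 media, with more FPKM in TβRII-/- cells after starvation and more in TβRIIfl/fl cells with serum. The difference between the serum-starved and the serum-replete log2 ratio was 2.11 for Cxcl1 and 3.34 for Ccl20. It was not tested, since each value comes from 1 library. Of the 11862 single-gene loci that passed the filter in both media, 3866 (32.6%) also had ratios of opposite sign.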

How the results depend on the processing

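No ratio or median of the 10 chemokines changed sign under any alternative, all of which were planned. Medians of other lists did. With a filter of 5 FPKM that of the other chemokines moved from 0.16 to −0.57 after starvation and from −0.019 to 0.84 with serum, that of collecting duct markers after starvation from −0.79 to 0.098 and that of fibroblast markers after starvation from −0.46 to 0.85. Without a filter the last was 0.020 and that of endothelial markers with serum −0.0055, and with median centering that of the other chemokines with serum was 0.0096. The number of chemokines called higher after starvation moved from 0 to 1 with a pseudocount of 0.1 or of 0.5, when Ccl20 passed 2-fold at log2 ratios of 1.57 and 1.04, and to 3 with a 1.5-fold threshold. The number called lower after starvation moved from 4 to 2 with a filter of 5 FPKM, which leaves out Cxcl12 and Ccl7. With serum, 1 gene was called higher under every alternative and 6 to 9 were called lower, and Cxcl2 passed 2-fold at −1.38 with a pseudocount of 0.1. The median of the chemokines ranged from −0.99 to −0.54 after starvation and from −1.65 to −1.40 with serum, the means included. Among values of single chemokines that still passed the filter, 100 kept their call and 3 gained one, with the 1.5-fold threshold not counted. A filter of 5 FPKM left out Cxcl12, Ccl7 and Ccl20 after starvation and Cxcl2 and Cxcl12 with serum. Those are not among these values. Of the medians of the other lists 124 stayed and 20 moved. No paired analysis was possible because each condition is 1 library with no replicate number. A fit of genotype with medium as a block, which would take the separately normalized media as replicates, was not run. Depth limits Cxcl5, Cxcl12 and, after starvation, Ccl7, whose TβRII-/- values are worth fewer than 7 reads.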

Other observations

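The cytokines measured beside the chemokines went in both directions. Spp1 (osteopontin), a secreted matrix protein that also attracts macrophages, was the most abundant of them, with 1607 FPKM in TβRII-/- and 5947 FPKM in TβRIIfl/fl cells after starvation and, with serum, 2140 FPKM against 21791 FPKM. Il34, a ligand of the macrophage receptor CSF1R, was 21.4 FPKM in TβRII-/- and 82.5 FPKM in TβRIIfl/fl cells with serum, a log2 ratio of −1.90, and −1.25 after starvation. Csf1, the other ligand of that receptor, had more in TβRII-/- cells, at 313 FPKM against 141 FPKM with serum (log2 ratio 1.14), and lay within 2-fold after starvation (0.41). It was named after its values were seen. Csf3 (G-CSF), which drives neutrophil production, was 3.25 FPKM in TβRII-/- and 0.0589 FPKM in TβRIIfl/fl cells after starvation and had a log2 ratio of 1.51 with serum. Lif was also higher in TβRII-/- cells, at log2 ratios of 1.25 and 1.57, while its receptor gene was lower. Mif, a cytokine that can signal through CXCR2 and CXCR4, had a log2 ratio of 1.64 after starvation and of 0.24 with serum. Over the list 3 of 10 measured genes were called higher and 2 lower after starvation, and 3 of 11 higher and 4 lower with serum, against the 8.02% and 6.64% and the 7.0% and 11.1% of all loci given above.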
